A study of Mus musculus with 2 samples.

Results

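Imprinted genes are expressed mainly from the copy inherited from one parent, and this report follows 36 autosomal ones in Fut8-/- and Fut8+/+ mouse embryonic fibroblasts. The members were named in a fixed list and matched by exact symbol in the platform annotation. Of the 36, 34 had at least 1 probe set carrying their symbol alone, with 91 such probe sets in all, out of 18193 genes named on the array. H19 and Dio3 had no such probe set and have no value here. A further 8 probe sets named a member together with a second symbol, among them that of H19, and were not used. Below, a gene is said to be on the array if it had a probe set of its symbol alone. The RNA came from cultured MEFs, fibroblasts grown out of mouse embryos, in 2 groups. The first was homozygous for disrupted Fut8 (Fut8-/-) and the other carried both normal copies (Fut8+/+), and there was 1 array of each. Both were grown in the same serum-containing medium, and the labels name no treatment, embryo age or strain. The series' design text gives n as 3 per genotype, but 1 array per genotype was analysed here, so no value below has a replicate check and no test of genotype can be made. Fut8 makes the alpha1,6-fucosyltransferase that adds core fucose to N-glycans.

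Most imprinting is laid down as DNA methylation in the egg or the sperm. It is kept in body cells at control regions, each of which can set the expression of several neighbouring genes. Within one cluster, a long noncoding RNA read from one parental chromosome often goes with silence of protein-coding genes on that same chromosome. Many paternally expressed imprinted genes are known as promoters of fetal growth and many maternally expressed ones as restraints on it. Several of them (Igf2, H19, Dlk1, Cdkn1c) are known to be active in embryonic mesenchyme. Arrays of this kind add up the RNA of both parental copies, so the allele named beside each gene is background and was not measured.

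Of the 34 imprinted genes on the array, 15 were measured, which here means that the brighter array reached a signal of 39.1, the 60th percentile of the pooled signals. Among the 15, 6 were higher in Fut8-/- by 2-fold or more (Sgce, Asb4, Kcnq1ot1, Plagl1, Ppp1r9a and Igf2r). A further 4 were lower by the same margin (Slc38a4, Cdkn1c, Cd81 and Meg3). The remaining 5 (Gnas, Tssc4, Copg2, Impact and Ube3a) lay within 2-fold. Over all 10164 measured genes 6.08% were higher and 8.46% lower by that margin, 14.5% in either direction. A gene that is bright on one array only can pass this limit by differing, and 4 of the 10 genes beyond 2-fold had one array at the floor, so the members' count cannot be read directly against that background. When both arrays had to reach the limit, 9 members remained, 2 higher (Igf2r and Plagl1) and 2 lower (Cd81 and Slc38a4), beside 3.67% higher and 4.89% lower (8.56% together) of 9148 genes; this filter was chosen after seeing the data. Without centring of the arrays, 6 of 17 measured members were higher and 6 lower, beside 4.08% higher and 11.8% lower (15.9% together) of 10194 genes. The median log2 ratio of the 15 was -0.09, against 0.00033 for all measured genes, and the members lay on both sides of 0.

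**Figure D1:**
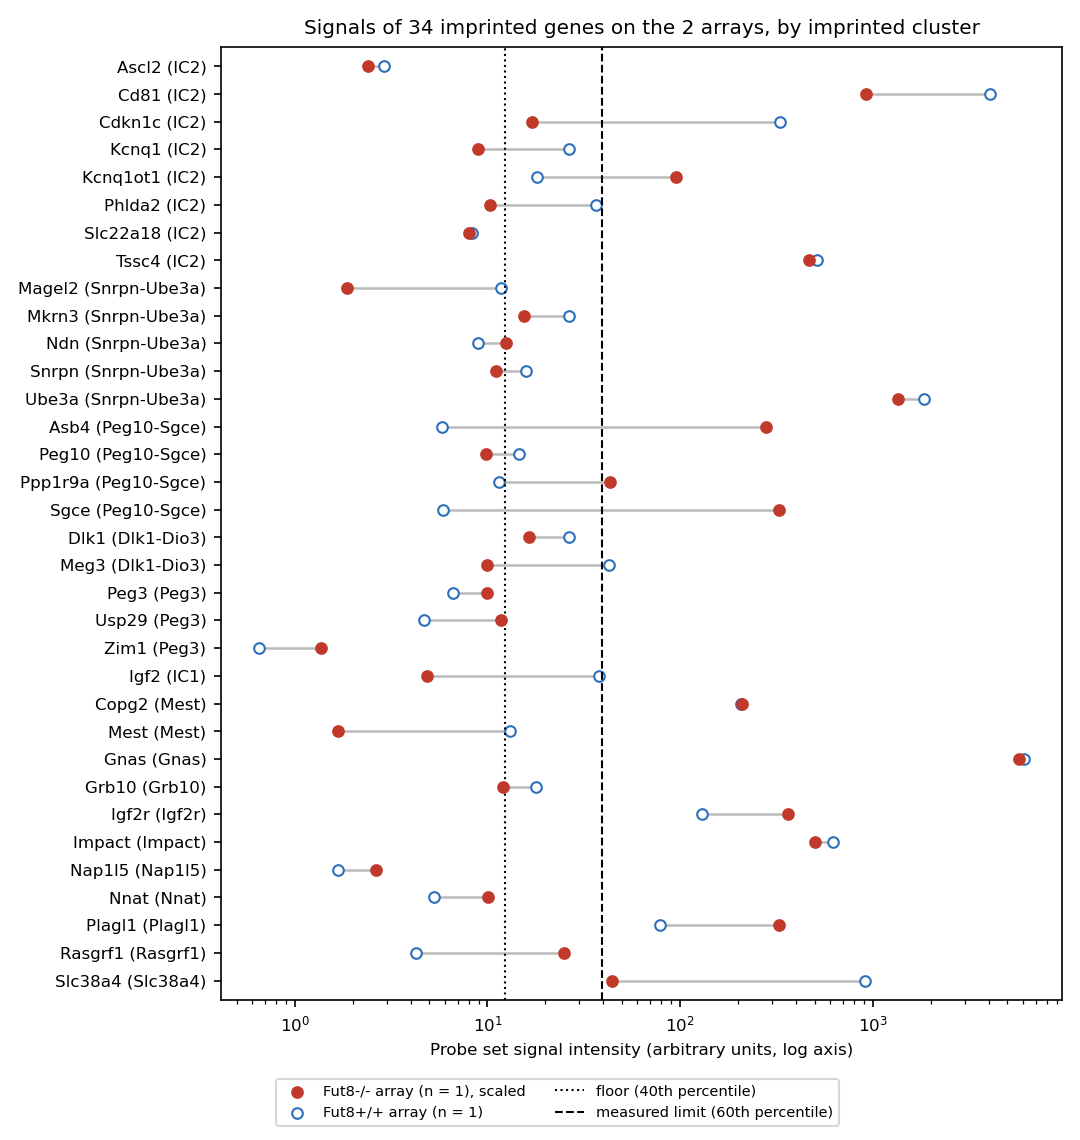
Signal of each imprinted gene at its brightest probe set on the Fut8-/- array (filled, scaled as described below) and the Fut8+/+ array (open), on a log axis in arbitrary units, 1 array each. The dotted line is the floor and the dashed line the measured limit; 19 of the 34 genes lie left of the dashed line on both arrays, the gaps of Sgce, Asb4 and Cdkn1c cross it, and both points of Slc38a4 lie right of it.

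Signals are printed as deposited, in arbitrary units. Ratios are Fut8-/- over Fut8+/+ after the Fut8-/- signals were multiplied by 1.16, and scaled signals under 12.3 (the 40th percentile) were raised to that floor. Where one array sat at the floor, the fold is given as a bound. Between probe sets of the same gene, when neither array was at the floor, log2 ratios had an SD of 0.40 (5389 genes), a technical spread within this pair of arrays that says nothing about variation between cultures. The Fut8 signal was 11.7 in Fut8-/- and 190.9 in Fut8+/+, 14.1-fold lower, at 1 of 3 probe sets; the other 2 were at the floor on both arrays, so that the median over probe sets was 0. Whether any of them reads the deleted part is not given. Of 11 fibroblast markers 10 were measured, with 4 lower, 1 higher and 5 between and a median log2 ratio of -0.53. Vim (11110 in Fut8-/- and 11471 in Fut8+/+) and Col1a2 (9433 and 11280) were bright and within 2-fold. Prrx1 was lower by at least 17.9-fold, Fn1 by 3.25-fold, Col1a1 by 2.59-fold and Pdgfra by 2.26-fold, and Pdgfrb was 2.13-fold higher. At a dimmer probe set Col1a1 was 1.38-fold and Pdgfra 1.42-fold lower. Of the trophoblast markers 0 of 6 on the array were measured (summed signal 41.1 in Fut8-/- and 59.7 in Fut8+/+), and of the endothelial ones 0 of 5. Of 8 neural markers 3 were measured (Sox2, Nes and Tubb3), all lower in Fut8-/-, and the list summed to 125.0 in Fut8-/- and 788.8 in Fut8+/+. Of 6 hepatocyte markers only Afp was measured, at 67.3 in Fut8-/- and 942.2 in Fut8+/+, while Alb and Ttr were at the floor on both arrays. Of 5 pluripotency markers 2 were measured, both dim and higher in Fut8-/- (Dppa5a 2.67-fold and Esrrb 2.47-fold), and the list summed to 95.1 in Fut8-/- and 46.8 in Fut8+/+. The other Esrrb probe sets had log2 ratios of 0.06 and -0.16. Of 7 muscle markers 3 were measured, and the list summed to 123.5 in Fut8-/- and 141.5 in Fut8+/+. Ckm was 2.27-fold higher at its brightest probe set but 1.61-fold lower at its other one. Des was at least 4.53-fold lower and Acta1 within 2-fold. Of 5 leukocyte markers only Csf1r was measured, within 2-fold (log2 ratio -0.24). Sex-linked transcripts differed too, with Y-linked Eif2s3y at 2845 in Fut8-/- and 7.06 in Fut8+/+ and Xist at 15.2 and 655.6. The part of these differences in the values below was not tested, and with 1 array each they cannot be told apart from genotype. In bulk RNA, fewer cells of a type and less RNA per cell cannot be told apart.

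Promoter windows are shown for 4 of the members described below. The noncoding Kcnq1ot1 and Cd81 had ratios of opposite sign in one cluster. Igf2r and Plagl1 were the members that were higher with both arrays past the measured limit. Each window runs 5′ to 3′ on the strand of its gene, from 250 bases before to 50 after the start, with CpG dinucleotides, the sites that carry methylation, in capitals. The windows are from RefSeq on GRCm38.p6, at chr7:143296498-143296797 (minus strand) for Kcnq1ot1, chr7:143052500-143052799 (plus) for Cd81, chr17:12769657-12769956 (minus) for Igf2r and chr10:13090582-13090881 (plus) for Plagl1.
Kcnq1ot1: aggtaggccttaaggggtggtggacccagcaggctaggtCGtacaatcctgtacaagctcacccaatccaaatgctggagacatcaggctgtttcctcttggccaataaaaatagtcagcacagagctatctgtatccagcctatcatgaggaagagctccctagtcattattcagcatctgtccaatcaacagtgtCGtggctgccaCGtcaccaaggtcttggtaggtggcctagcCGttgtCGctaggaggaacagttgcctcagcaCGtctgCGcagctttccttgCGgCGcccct
Cd81: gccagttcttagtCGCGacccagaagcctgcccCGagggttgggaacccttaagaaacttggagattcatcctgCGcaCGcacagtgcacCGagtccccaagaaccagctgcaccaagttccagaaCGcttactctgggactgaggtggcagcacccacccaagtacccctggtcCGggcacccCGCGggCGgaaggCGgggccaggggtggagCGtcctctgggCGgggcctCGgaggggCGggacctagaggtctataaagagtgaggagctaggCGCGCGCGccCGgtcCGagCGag
Igf2r: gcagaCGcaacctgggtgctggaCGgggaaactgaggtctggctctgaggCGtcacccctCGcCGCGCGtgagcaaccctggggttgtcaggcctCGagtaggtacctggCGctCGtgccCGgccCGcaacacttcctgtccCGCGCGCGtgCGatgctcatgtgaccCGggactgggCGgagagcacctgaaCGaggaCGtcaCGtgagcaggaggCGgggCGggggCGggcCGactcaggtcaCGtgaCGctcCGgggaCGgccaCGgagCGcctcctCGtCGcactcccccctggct
Plagl1: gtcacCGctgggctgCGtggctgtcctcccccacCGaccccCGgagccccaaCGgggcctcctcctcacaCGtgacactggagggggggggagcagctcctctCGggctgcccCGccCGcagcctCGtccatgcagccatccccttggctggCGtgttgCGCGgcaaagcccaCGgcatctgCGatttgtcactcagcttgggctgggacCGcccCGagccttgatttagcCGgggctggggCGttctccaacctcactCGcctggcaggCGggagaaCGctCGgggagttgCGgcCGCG

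The Kcnq1ot1 window held 9 CpGs, the Cd81 window 23, the Plagl1 window 26 and the Igf2r window 34. Windows were found for 30 of the 36 members, 47 windows in all, with a median of 15 CpGs, against 7 for all 32851 windows of the same length. Cdkn1c, Sgce, Peg10, Kcnq1, Impact and H19 had no window. The hexamer TGCCGC, which in its methylated form is bound by the imprint-keeping zinc finger protein ZFP57, was searched on both strands (GCGGCA on the other). It occurred in at least 1 window of 10 of the 30 members (33.3%) and of 13.1% of the 27025 genes with a window. Counted by window, 11 of the 47 member windows held it (23.4%), against 11.6% of all 32851. The hexamer contains a CpG, and the shares were not adjusted for CpG number or for windows per gene. Of the 4 windows printed only the Plagl1 one held it, once. These are matches of letters, and neither methylation nor binding was measured here.

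The Kcnq1 cluster at the distal end of chromosome 7 (IC2) held genes on both sides. Kcnq1ot1, the long noncoding RNA read from the paternal chromosome and known to silence the cluster there, had a signal of 82.2 in Fut8-/- and 18.1 in Fut8+/+, 5.28-fold higher. Its probe sets were dim, but the 4 of 6 that left the floor on at least 1 array all had ratios above 0. Beside the brightest these were 42.5 in Fut8-/- and 6.70 in Fut8+/+, 29.6 and 14.9, and 14.5 and 13.7. The maternally expressed Cdkn1c, which encodes the cell cycle inhibitor p57, had 14.7 in Fut8-/- and 331.8 in Fut8+/+, 19.4-fold lower at its 1 probe set. The Fut8-/- signal of Cdkn1c was close to the floor. Cd81, a tetraspanin of the cell surface, had 796.1 in Fut8-/- and 4073 in Fut8+/+, 4.40-fold lower and well above the limit on both arrays. Tssc4, whose 1 probe set gave 399.7 in Fut8-/- and 514.0 in Fut8+/+, differed by 1.11-fold, less than the spread between probe sets. With both arrays required to pass the limit, Kcnq1ot1 and Cdkn1c were not measured, and over all its probe sets Kcnq1ot1 had a median log2 ratio of 0.76, within 2-fold; Cd81 was called under both settings.

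The dimmer maternally expressed genes of this cluster had lower signals in Fut8-/- or gave no ratio. Phlda2, a pleckstrin homology protein that restrains placental growth, had 8.87 in Fut8-/- and 36.5 in Fut8+/+, and the potassium channel subunit gene Kcnq1 had 7.71 and 26.5. Both lay under the measured limit on both arrays and are not counted. Kcnq1ot1 lies within Kcnq1 in the RefSeq annotation, so signal at the shared stretch is told apart only by the probe set's annotation, and the strand read was not checked. The transporter gene Slc22a18 (6.92 in Fut8-/- and 8.28 in Fut8+/+) and Ascl2, a transcription factor of the trophoblast (2.05 and 2.89), were at the floor on both arrays. Next to this cluster, the paternally expressed growth factor gene Igf2 had 4.15 in Fut8-/- and 38.1 in Fut8+/+ at its brighter probe set, just under the measured limit, and its other probe set was at the floor on both arrays. If counted, Igf2 would be at least 3.09-fold lower.

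**Figure D2:**
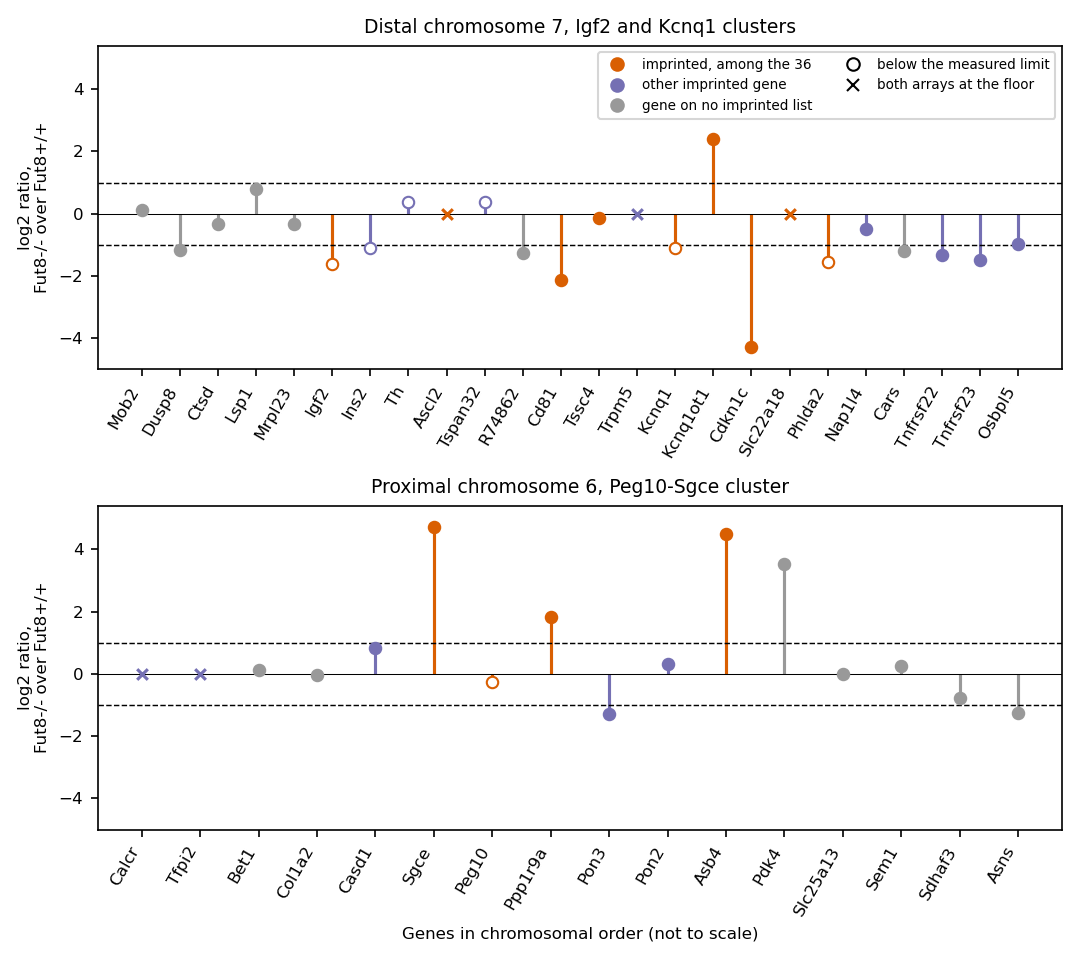
Log2 ratio (Fut8-/- over Fut8+/+, 1 array each) of genes in chromosomal order along distal chromosome 7 (top) and proximal chromosome 6 (bottom), with the 36 imprinted genes in orange, other imprinted genes in violet and genes on no imprinted list in grey. Kcnq1ot1 stands above the line at 2.40 between Kcnq1 and Cdkn1c, which lie below it, and on chromosome 6 Sgce, Ppp1r9a, Asb4 and the adjoining Pdk4 all stand above 1.

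The stretch around the Kcnq1 cluster was itself somewhat lower. The 10 nearest measured genes outside it and on no imprinted list, 5 on each side, had a median log2 ratio of -0.32 (from -1.19 to 0.78). Of these, 2 were at least 2-fold lower and 0 higher. Neighbours of the other loci were taken in the same way. R74862, on no imprinted list but inside the cluster next to Cd81, had a log2 ratio of -1.26 (15.9 in Fut8-/- and 44.1 in Fut8+/+). The median of all 714 measured genes of chromosome 7 was also -0.32. The ratios of Cdkn1c (-4.28), Cd81 (-2.14) and Kcnq1ot1 (2.40) lay outside the range of those 10 neighbours, and that of Tssc4 (-0.14) lay inside it. Other imprinted genes of the same stretch were lower or near 0. Tnfrsf23 was 2.79-fold lower (14.2 in Fut8-/- and 45.9 in Fut8+/+) and Tnfrsf22 2.51-fold lower (21.2 and 61.9). Both are decoy receptors of the tumour necrosis factor receptor family, and both were dim. The other Tnfrsf22 probe sets had log2 ratios of -0.98 and 0.14. Of 11 alternative settings, Tnfrsf23 kept its call under 7 and Tnfrsf22 under 6. Osbpl5 (-0.98) and Nap1l4 (-0.48) lay within 2-fold.

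On proximal chromosome 6, 3 of the 4 members of the Peg10-Sgce cluster were higher in Fut8-/-, although they are listed as read from different parental copies. Of all measured genes 6.08% were higher, and of those on chromosome 6 4.07%. All 3 had the Fut8+/+ array at the floor, so each passed the measured limit only through Fut8-/-. With both arrays required to pass, Sgce, Asb4 and Ppp1r9a were not measured. The paternally expressed Sgce, which encodes epsilon-sarcoglycan, had 280.5 in Fut8-/- and 5.85 in Fut8+/+, at least 26.4-fold higher. Its other probe set was dim, at 12.2 in Fut8-/- and 1.78 in Fut8+/+. Asb4, the maternally expressed gene of an ankyrin repeat and SOCS box protein, had 239.5 in Fut8-/- and 5.82 in Fut8+/+ at its brighter probe set and 129.5 and 2.61 at the other (at least 22.6-fold and 12.2-fold higher). Both probe sets of Asb4 were therefore well above the limit in Fut8-/- and at the floor in Fut8+/+. Ppp1r9a, which encodes the actin-binding scaffold neurabin, had 37.3 in Fut8-/- and 11.4 in Fut8+/+, at least 3.52-fold higher, at 1 of 5 probe sets. A second Ppp1r9a probe set gave 16.1 in Fut8-/- and 15.5 in Fut8+/+, so the difference rests on a single dim one.

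Peg10, a retrotransposon-derived gene that shares its control region with Sgce, was dim on both arrays (8.40 in Fut8-/- and 14.7 in Fut8+/+). The order of genes along the chromosome places Casd1 before Sgce, then Peg10, Ppp1r9a, Pon3, Pon2 and Asb4, and after them Pdk4, a kinase that inhibits pyruvate dehydrogenase and that is on no imprinted list used here. Pdk4 was 218.9 in Fut8-/- and 22.3 in Fut8+/+, 11.4-fold higher. The Fut8+/+ signal of Pdk4 was under the measured limit, so it too passed only through Fut8-/-. Casd1 was 1.78-fold higher, short of 2-fold, whereas the paraoxonase gene Pon3 was 2.44-fold lower and Pon2 differed by 1.25-fold. The higher signals thus were not continuous along the stretch. The 10 nearest genes on no imprinted list had a median log2 ratio of -0.02, from -1.25 to 3.51, the last being Pdk4.

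Igf2r on chromosome 17, maternally expressed in mouse, encodes the receptor that clears IGF2 and carries mannose 6-phosphate-tagged enzymes to lysosomes. Its brighter probe set gave 310.5 in Fut8-/- and 130.2 in Fut8+/+ and the other 185.0 and 101.2, which makes 2.78-fold and 2.13-fold higher. Airn, the noncoding RNA read from the paternal chromosome across the Igf2r promoter and known to silence Igf2r in cis, had 12.1 in Fut8-/- and 61.3 in Fut8+/+ at its brightest probe set, 4.34-fold lower. The 3 Airn probe sets that left the floor had log2 ratios of -2.12, -1.29 and -0.96, and the other 2 were at the floor on both arrays. Airn was dim, and its log2 ratio was -0.65 when the floor was raised to the 60th percentile. Of 11 alternative settings, Airn kept its call under 6 and was not measured under 3. With both arrays required to pass the limit, Igf2r was still called but Airn was not measured. The neighbours of Igf2r had a median of 0.17 (from -0.19 to 1.29).

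Plagl1 and Slc38a4, both paternally expressed and each the only member of its locus here, lay on opposite sides. Plagl1, a zinc finger transcription factor known as a regulator of other imprinted genes, had 279.1 in Fut8-/- and 78.2 in Fut8+/+, 4.16-fold higher. Its other 2 probe sets were at the floor on both arrays, so the ratio rests on 1. The 10 neighbours on chromosome 10 had a median log2 ratio of -0.65, from -1.66 to 0.13, all below the Plagl1 ratio of 2.05. Slc38a4, a sodium-coupled neutral amino acid transporter of the system A family, had 38.0 in Fut8-/- and 906.3 in Fut8+/+ at one probe set and 53.6 and 437.9 at the other, 20.5-fold and 7.02-fold lower. Both probe sets were measured on both arrays. The 10 neighbours of Slc38a4 on chromosome 15 had a median log2 ratio of -0.01, from -3.16 to 0.89, and 2 of them were lower. These were the related transporter gene Slc38a1 (75.4 in Fut8-/- and 781.6 in Fut8+/+, 8.91-fold) and Gm4371 (0.60 and 84.7, at least 6.86-fold). Slc38a2, which lies between Slc38a1 and Slc38a4, differed by 1.25-fold (3475 in Fut8-/- and 3243 in Fut8+/+).

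**Figure D3:**
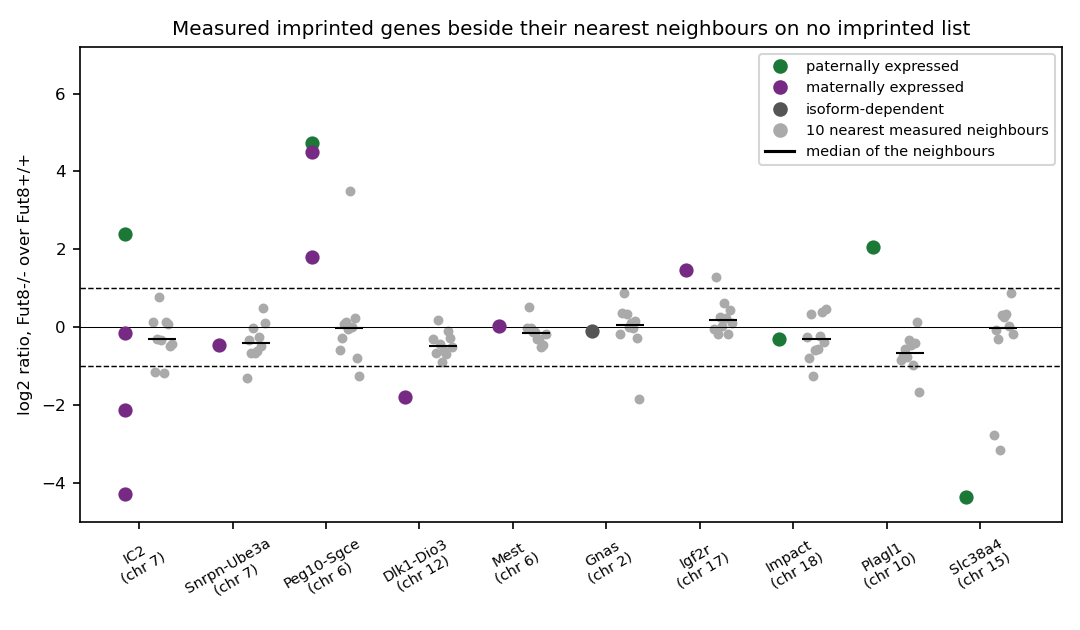
Log2 ratio (Fut8-/- over Fut8+/+, 1 array each) of the measured imprinted genes of 10 loci (coloured by expressed allele) beside their 10 nearest measured neighbours outside the locus and on no imprinted list, 5 on each side (grey, with a black line at the median). Plagl1 at 2.05 and Slc38a4 at -4.36 lie outside the range of their own neighbours, and Gnas, Copg2, Impact and Ube3a lie within it.

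Grouped by the copy listed as expressed, neither set lay on one side. The listing is not specific to fibroblasts, where the expressed copy was not measured, and it counts Ube3a as maternally expressed. Of 19 paternally expressed members, 18 were on the array and 5 measured, with 3 higher (Sgce, Kcnq1ot1 and Plagl1), 1 lower (Slc38a4) and Impact between. Of 16 maternally expressed members, 15 were on the array and 9 measured, with 3 higher (Asb4, Ppp1r9a and Igf2r), 3 lower (Cdkn1c, Cd81 and Meg3) and 3 between. Of all measured genes 6.08% were higher and 8.46% lower. For 1 of the 4 paternally and 3 of the 6 maternally expressed genes beyond 2-fold, an array was at the floor. These counts therefore cannot be read directly against those shares. The median log2 ratios were 2.05 and -0.14 for the paternally and the maternally expressed sets, but the paternal set has 5 genes. With both arrays past the limit, the paternal median was -0.31 over 3 genes and the maternal one -0.14 over 5. Ratios ran from -4.36 to 4.72 in the paternally expressed set and from -4.28 to 4.50 in the maternally expressed one, so the sets overlapped over nearly their whole range. Of all measured genes, 5% lay below -1.41 and 5% above 1.12.

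**Figure D4:**
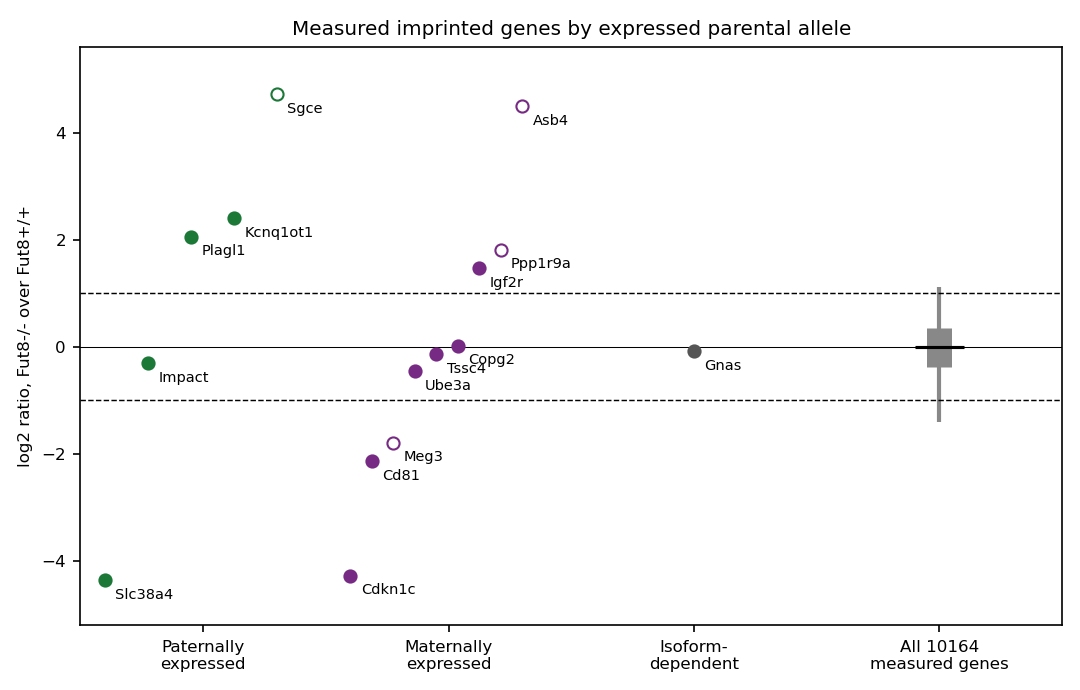
Log2 ratio (Fut8-/- over Fut8+/+, 1 array each) of the 15 measured imprinted genes by expressed parental allele, with all 10164 measured genes at the right (bar, 25th to 75th percentile; line, 5th to 95th; black, median). Open circles are bounds with one array at the floor, and dashed lines mark 2-fold; both allele sets reach above 4 and below -4.

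Other loci had a member within 2-fold. Gnas, which encodes the stimulatory G protein alpha subunit and yields several transcripts of different parental origin, had 4913 in Fut8-/- and 6075 in Fut8+/+ (log2 ratio -0.09). Its 4 other probe sets were dim, the highest at 28.2 in Fut8-/- and 20.1 in Fut8+/+. Ube3a, a ubiquitin ligase that is imprinted in neurons and read from both copies in most other cells, had 1158 in Fut8-/- and 1854 in Fut8+/+ (-0.46). Of the 5 Ube3a probe sets that left the floor 4 had ratios below 0, from -0.97 to -0.46, and the neighbours' median was -0.40. Copg2, a coat protein subunit of Golgi vesicles, had 180.4 in Fut8-/- and 207.2 in Fut8+/+ (0.02). Impact, an inhibitor of the amino acid sensor kinase GCN2, had 432.8 in Fut8-/- and 623.3 in Fut8+/+ (-0.31), at the median of its neighbours (-0.32).

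Meg3, the maternally expressed noncoding RNA of the Dlk1-Dio3 cluster on chromosome 12, was counted as lower from 1 probe set. This gave 8.59 in Fut8-/- and 42.8 in Fut8+/+, at least 3.47-fold lower and just past the measured limit. Of its 11 probe sets 7 were at the floor on both arrays, and the other 4 split into 2 with ratios above 0 and 2 below. Dlk1, a paternally expressed membrane protein of the Notch ligand family, had 14.1 in Fut8-/- and 26.5 in Fut8+/+ at its brighter probe set and 11.0 and 22.8 at the other, under the limit on both arrays. Neighbours of this cluster had a median log2 ratio of -0.48 and all measured genes of chromosome 12 one of -0.38, so the Dlk1 value of -0.69 lay within the range of its neighbours (from -0.90 to 0.20).

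**Figure D5:**
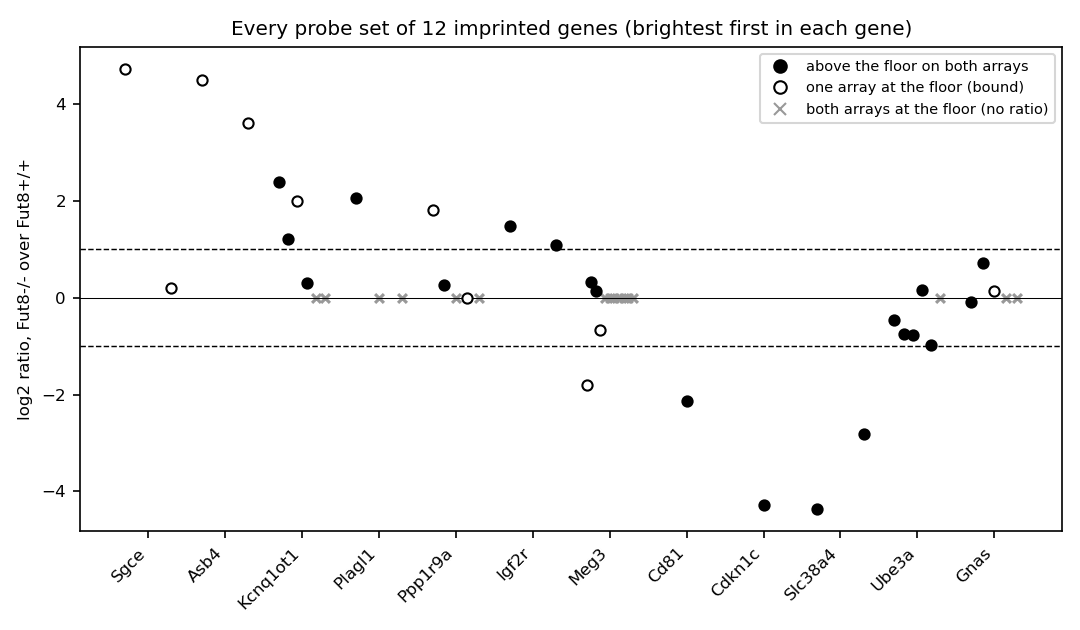
Log2 ratio (Fut8-/- over Fut8+/+, 1 array each) of every probe set of the 10 imprinted genes beyond 2-fold and of Ube3a and Gnas. Filled points were above the floor on both arrays, open ones are bounds, crosses give no ratio; the probe sets of Asb4, Igf2r and Slc38a4 lie on one side of 0, and those of Meg3 on both.

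The remaining members were dim on both arrays. Altogether 19 of the 34 stayed under the limit, with signals from 1.18 to 21.4 in Fut8-/- and from 0.65 to 38.1 in Fut8+/+, and 8 of them were at the floor on both. At the floor were all 3 members of the Peg3 cluster, namely the zinc finger genes Peg3 and Zim1 and the ubiquitin peptidase gene Usp29. The promoter windows of Peg3 and Usp29 overlap head to head by 263 bases, and the highest signal of either gene was 10.1 in Fut8-/- and 8.74 in Fut8+/+. The MAGE family gene Magel2, the membrane proteolipid gene Nnat and the nucleosome assembly family gene Nap1l5 were at the floor as well. Necdin (Ndn), with 8 probe sets, gave at most 10.7 in Fut8-/- and 8.95 in Fut8+/+.

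Of the others, the RING finger gene Mkrn3 had 13.3 in Fut8-/- and 26.5 in Fut8+/+, and the splicing protein gene Snrpn 9.56 and 15.9. Further Snrpn probe sets carried a second symbol and were not used. Mest, an alpha/beta hydrolase family gene, had 1.44 in Fut8-/- and 13.1 in Fut8+/+, and Grb10, an adaptor that restrains insulin signalling, had 10.4 and 17.8. Rasgrf1, a Ras exchange factor, was the 1 member under the limit with a ratio past 2-fold upward, at 21.4 in Fut8-/- and 4.24 in Fut8+/+. No direction is drawn for these dim genes.

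A list of 45 other imprinted genes, 36 of them on the array, had more members lower than higher. Of 17 measured, 7 were lower and 1 was higher by 2-fold or more, and the median log2 ratio was -0.81 against 0.00033 for all measured genes, of which 8.46% were lower and 6.08% higher. With both arrays past the limit, 2 of 12 were lower and 1 was higher, beside 4.89% and 3.67% of all genes, and the median was -0.36. Several genes of the list lie on chromosome 7, where the median of all measured genes was -0.32. With each chromosome centred, 7 of the list were lower and 1 was higher, and its median was -0.49. On chromosome 2, Mcts2 is a retrocopy gene that lies within H13, and transcription of it is known to shorten H13 messages on the paternal chromosome. Mcts2 had 23.0 in Fut8-/- and 732.4 in Fut8+/+, 27.3-fold lower, whereas H13, a signal peptide peptidase gene, had 1498 and 560.7, 3.11-fold higher. The 6 H13 probe sets disagreed, one of them being at least 6.54-fold lower (5.44 in Fut8-/- and 80.7 in Fut8+/+), and the median over them was within 2-fold. Mcts1, from which Mcts2 was copied, differed by 1.17-fold (736.8 in Fut8-/- and 1003 in Fut8+/+), and cross-hybridisation between them was not tested.

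Also in that list, Sfmbt2, a Polycomb-related gene that is paternally expressed in placenta, had 0.82 in Fut8-/- and 303.8 in Fut8+/+, at least 24.6-fold lower. Atp10a, a phospholipid flippase gene, had 124.5 in Fut8-/- and 411.9 in Fut8+/+, 2.84-fold lower, and all 4 of its probe sets were at least 2-fold lower. Of 24 regulators that set, keep or erase imprints, 19 were measured. At the brightest probe set 0 lay beyond 2-fold (14.5% of all measured genes did) and the median log2 ratio was 0.04. Dimmer probe sets of Suz12 (75.6 in Fut8-/- and 43.6 in Fut8+/+), Arid4a (17.0 and 60.6) and Arid4b (29.4 and 9.38) lay beyond 2-fold. With so few genes, a count of 0 does not set the regulators apart. The maintenance methyltransferase Dnmt1 had 1081 in Fut8-/- and 1614 in Fut8+/+ (-0.36), and its partner Uhrf1 1328 and 1342 (0.20). The differences furthest from 0 at the brightest probe set were those of the chromatin genes Arid4b (0.76), Arid4a (-0.71) and Setdb1 (0.55) and of the zinc finger gene Zfp445 (0.54). Other probe sets gave -0.39 and 0.38 for Setdb1 and -0.02 and -0.003 for Zfp445. Zfp57 itself was dim, at 18.7 in Fut8-/- and 14.8 in Fut8+/+.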

How the data were processed

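RNA of Fut8-/- and Fut8+/+ MEFs, grouped by their genotype labels, was read on 1 Affymetrix mouse array each. The values are the authors' deposited signal intensity per probe set (45101), on a linear scale and made with GCOS per the submitters' processing notes; its version, algorithm and scaling are not given in the sources used. Medians as deposited were 16.9 (Fut8-/-) and 20.5 (Fut8+/+), so scale and centring stay unknown beyond linearity.

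Gene symbols came from the platform annotation (34945 with 1 symbol used, 932 with several left out), and gene order and chromosomes came from GRCm38.p6. Log2 ratios were centred on the median (-0.22) of probe sets that exceeded percentile 40 in each array, then floored. A gene was read at its brightest probe set by mean log2 signal. With 1 array per genotype there is no test; genes were counted by a fixed 2-fold limit, and the number of arrays limits the precision. The steps were tested on simulated data. All 36 members are named, with up to 4 measured genes of each other list that had the largest absolute log2 ratio, Fut8 and sex-linked genes. Mcts1, Pdk4, Slc38a1, Slc38a2, Gm4371, R74862, Casd1, Pon2, Pon3, Tnfrsf22, Tnfrsf23, Osbpl5, Nap1l4, Atp10a, Dnmt1, Uhrf1, Zfp57, Suz12, Vim, Col1a2, Pdgfrb, Alb and Ttr fall outside this rule and were picked with their values known. The members and lists were chosen with earlier results of these data known. There were 9 planned and 2 added alternative settings. Python 3.11.15, numpy 2.4.6 and pandas 2.3.3 were used.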

Additional observations from a re-analysis of the deposited data

How the results depend on the processing

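Of the 11 settings 4 change only the filter and cannot move a ratio. The other 7 gave 105 ratios for the 15 measured members, of which 90 moved by less than the probe-set SD and 15 by more, and 0 called ratios changed sign. Igf2r, Cd81 and Slc38a4 kept their call under all 11, while Meg3 and Ppp1r9a kept theirs under 6. Without centring 6 members were higher and 6 lower (4.08% and 11.8% of all 10194 measured genes, against 6.08% and 8.46%), and the paternally expressed median was 0.66. With each chromosome centred, the median of all members and that of the maternally expressed ones were both 0.15, of the other sign. The paternally expressed median was 1.29 with a floor at the 60th percentile, 0.87 with the filter at the 75th, and 0 without a filter, where 7 members were lower. Over all probe sets of a gene, 3 members were higher and the paternally expressed median was 0; Plagl1, Kcnq1ot1, Meg3 and Ppp1r9a then lay within 2-fold. Requiring both arrays past the limit, an alternative chosen after seeing the data, left 2 higher, 2 lower and a paternally expressed median of -0.31; this filter tests fewer genes by construction. The causes of the other changes were not tested. The list of other imprinted genes had from 2 to 9 lower members over the settings, and the imprint regulators 0 beyond 2-fold in each. No paired analysis was possible because each genotype has 1 array. Signal over background limits the 19 dim members.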
